A study of Mus musculus with 18 samples.

Results

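The genes described here encode the ligand subunits and receptor chains through which IL-35, IL-12, IL-23, IL-27 and IL-6 are made or sensed. They were chosen by symbol, and all 8 of them (*Ebi3*, *Il12a*, *Il12rb1*, *Il12rb2*, *Il27ra*, *Il23r*, *Il6ra* and *Il6st*) were found among the 50600 genes of the count table. RNA-seq was performed on Tregs sorted from 18 individual C57BL/6 mice. Thymic CD25 KO Tregs came from 5 CD25 flox/Foxp3-YFP/Cre mice, in which Cre made from the *Foxp3* locus removes an exon of *Il2ra*. These mice were 3-4 weeks old and had been “cured”, meaning that they received WT splenocytes as neonates to prevent autoimmunity. Their controls were 5 Foxp3/RFP reporter mice with intact CD25, of the same age, for which no such transfer is described. In the spleen, CD25 KO Tregs were sorted from 4 mice of the CD25 flox/Foxp3eGFP-Cre-ERT2/R26Y line, in which tamoxifen activates a Cre made in Foxp3+ cells and a YFP reporter marks the cells that recombined. Tamoxifen was given at 7-10 weeks of age and cells were taken 10-14 days later, and the controls were 4 CD25 WT reporter mice that also received tamoxifen. The comparison of CD25 KO with WT asks which transcripts depend on the IL-2 receptor during thymic Treg development and, separately, after its loss from mature splenic Tregs. In the thymus, reporter allele, Cre and the described splenocyte transfer differ together with genotype and cannot be told apart from loss of CD25.

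These cytokines are built from subunits that are exchanged within a family. EBI3 pairs with p28, the product of *Il27*, to make IL-27, and with p35, the product of *Il12a*, to make IL-35, a cytokine known for its release by suppressive Tregs, whereas p35 and p40, the product of *Il12b*, form IL-12. On the receiving cell, IL-12Rβ1 is used by both IL-12 and IL-23, with IL-12Rβ2 or IL-23R as its partner. The chain gp130, the product of *Il6st*, joins IL-6Rα to bind IL-6 and IL-27Rα to bind IL-27, and it has been described in IL-35 receptors together with IL-12Rβ2. These receptors act through Janus kinases on STAT factors, and in CD4+ T cells they are known for directing helper fates and for affecting Treg stability.

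Total counts were 17239774 to 23993674 in thymic and 25258341 to 32639570 in splenic samples. Levels are given as raw counts or as CPM, counts relative to the total of the sample on the usual scale, after TMM scaling over all samples. The floor of detection, 3 counts, equals at most 0.163 CPM in a thymic and 0.128 CPM in a splenic sample. Genes were called changed at a false discovery rate (FDR) below 0.01 in edgeR's quasi-likelihood test within each tissue. The targeted gene *Il2ra* was at 524 to 682 CPM in thymic WT and 95.8 to 280 CPM in thymic CD25 KO mice, and at 488 to 538 CPM in splenic WT and 168 to 208 CPM in splenic CD25 KO mice. Thymic CD25 KO mice 2 and 4 stood apart, with 280 and 234 CPM of *Il2ra* against 95.8 to 105 CPM in the other 3 mice. Why they had more was not tested. Thymic fold changes of *Ebi3*, *Il12rb1*, *Il12rb2* and *Il6st*, and thymic counts of called genes, are therefore also given without these 2 mice. The paper reports that the *Il2ra* transcripts left in CD25 KO Tregs lack the deleted exon, as shown for peripheral Tregs. Levels counted over the whole gene therefore do not measure functional CD25. *Foxp3*, which defines Tregs, was at 204 to 577 CPM in all samples.

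The genes are spread over 5 chromosomes, as annotated in GRCm38. *Il12rb2* (chr6:67291318-67376188) and *Il23r* (chr6:67422932-67491855) are neighbors on the minus strand, *Il12a* (chr3:68690644-68698547) and *Il6ra* (chr3:89864059-89913196) share chromosome 3, and *Il12rb1* (chr8:70808449-70821424) and *Il27ra* (chr8:84030294-84042589) share chromosome 8. *Ebi3* lies at chr17:55952640-55957022 and *Il6st* at chr13:112464070-112510086. STAT dimers bind the motif TTCNNNGAA, which is its own reverse complement and so is read on both strands at once. RefSeq promoters (GRCm38.p6) were matched for 6 of the 8 genes, and the 250 bases before the start were searched. The motif was found in 1 of these 6 genes, *Il12rb2*, beside 8.13% of 27025 genes with a window, or 7.02% of 32851 windows of the same length. The windows of the 3 genes on which the comparisons below turn are shown, with the motif in capitals, its first base lying 123 bases before the start of *Il12rb2*. No match of these letters was found in the windows of *Ebi3* and *Il6ra*.
Il12rb2, chr6:67376189-67376438, minus strand: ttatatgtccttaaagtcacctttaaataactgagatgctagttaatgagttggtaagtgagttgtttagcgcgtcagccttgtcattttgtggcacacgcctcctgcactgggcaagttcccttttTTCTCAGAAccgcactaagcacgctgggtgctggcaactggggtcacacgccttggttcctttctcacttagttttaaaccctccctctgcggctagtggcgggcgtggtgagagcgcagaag
Ebi3, chr17:55952373-55952622, plus strand: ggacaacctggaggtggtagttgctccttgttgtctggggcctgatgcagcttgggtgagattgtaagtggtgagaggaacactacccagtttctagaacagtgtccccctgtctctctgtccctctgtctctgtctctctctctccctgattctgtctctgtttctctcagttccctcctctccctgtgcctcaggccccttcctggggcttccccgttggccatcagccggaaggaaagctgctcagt
Il6ra, chr3:89913197-89913446, minus strand: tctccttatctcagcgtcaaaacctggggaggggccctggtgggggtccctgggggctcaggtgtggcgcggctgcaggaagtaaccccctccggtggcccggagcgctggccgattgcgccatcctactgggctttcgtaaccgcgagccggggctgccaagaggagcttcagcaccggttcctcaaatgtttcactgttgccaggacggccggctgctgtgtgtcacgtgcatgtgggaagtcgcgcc

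Compared per length, as CPM divided by kilobases of merged exon (RPKM), the receptor chains of IL-6 and IL-27 were the most abundant transcripts of the family in all 4 groups. In thymic WT Tregs, *Il6st* was at 64.1 ± 3.70 RPKM and *Il27ra* at 59.7 ± 3.26 RPKM (SD, n = 5), and the values of these 2 genes overlapped. *Il6ra* followed at 21.04 ± 2.78 RPKM, *Ebi3* at 3.40 ± 0.704 RPKM, *Il12rb1* at 1.87 ± 0.166 RPKM and *Il12rb2* at 0.755 ± 0.210 RPKM, each with no value in common with its neighbor in this order. *Il23r* and *Il12a*, at up to 0.0902 and 0.0749 RPKM, were at the bottom and overlapped.

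In splenic WT Tregs the first places were exchanged, with *Il27ra* at 81.2 ± 2.07 RPKM above *Il6st* at 45.3 ± 2.48 RPKM (SD, n = 4), and these values did not overlap. *Il6ra* was at 33.2 ± 2.19 RPKM and *Ebi3* at 12.4 ± 1.68 RPKM. *Il12rb2* at 0.474 ± 0.0569 RPKM and *Il23r* at 0.418 ± 0.131 RPKM were not separable by their spread. In thymic CD25 KO Tregs, *Ebi3* (0.682 to 2.75 RPKM) was no longer separate from *Il12rb1* (1.22 to 2.33 RPKM), whereas *Il6st* (67.0 to 91.7 RPKM) lay wholly above *Il27ra* (52.7 to 63.7 RPKM). The order in splenic CD25 KO Tregs was that of splenic WT, except that *Il12rb2* (0.550 to 0.770 RPKM) lay above *Il23r* (0.214 to 0.420 RPKM) without overlap. Transcripts of both receptor chains for IL-6 and IL-27 were thus abundant in every sample, and those of the specific chains for IL-12 and IL-23 were scarce.

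**Figure D1:**
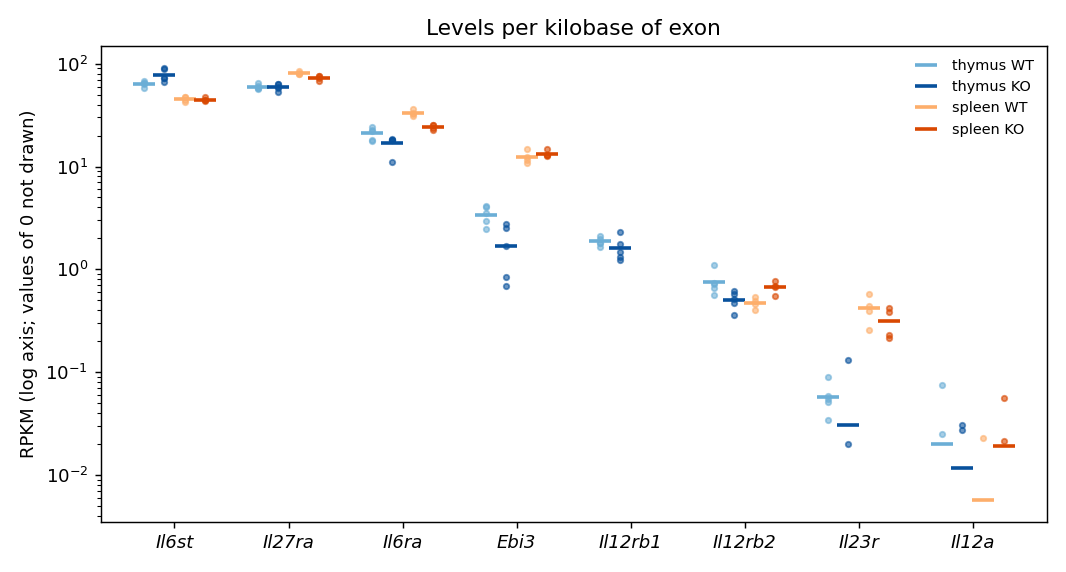
RPKM on a log axis for the 8 genes in the 4 groups. Small points are mice and bars are group means, values of 0 are not drawn, and *Il6st*, *Il27ra* and *Il6ra* lie above 10 RPKM in all samples whereas *Il12rb2*, *Il23r* and *Il12a* lie near or below 1 RPKM.

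Among the ligand subunits, *Ebi3* was detected in all samples, and its level in CD25 KO mice was 1.95-fold lower than in WT in the thymus, without passing the threshold, and close to WT in the spleen. Thymic WT mice 1 to 5 had 3.39, 4.04, 2.83, 4.61 and 4.74 CPM of *Ebi3*, from 63 to 111 counts. Thymic CD25 KO mice 1 to 5 had 1.95, 3.18, 0.980, 2.93 and 0.787 CPM, from 15 to 69 counts. The 2 high CD25 KO values are those of mice 2 and 4, which also had the most *Il2ra*, and they are the ones that reach into the WT range. The log2 fold change was -0.96 ± 0.33 (SE), with an edgeR adjusted p of 0.0524. Without mice 2 and 4 it was -1.64 ± 0.30 with an edgeR adjusted p of 0.00299. *Ebi3* was also called when all 18 samples were fitted together (edgeR adjusted p = 0.00843). It was not called by DESeq2 (adjusted p = 0.0171) or with any single mouse left out (edgeR adjusted p of 0.0273 to 0.113, log2 fold change of -1.21 to -0.76). In these bulk samples, fewer cells that express a gene and less of its RNA per cell cannot be told apart.

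Splenic WT mice had 14.2, 12.6, 13.5 and 17.1 CPM of *Ebi3*, and splenic CD25 KO mice had 17.03, 14.7, 14.9 and 14.8 CPM. The groups overlapped, and the log2 fold change was 0.10 ± 0.099 (SE, edgeR adjusted p = 0.533, 95% interval -0.092 to 0.30). *Ebi3* shares 270 exonic bases with *Gm16712* on the opposite strand, which had 10 to 115 counts per sample, and since the strand setting of the counting is not stated, reads from the shared bases cannot be assigned.

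*Il12a*, which encodes the p35 subunit of IL-35 and IL-12, had 0 to 3 counts in every sample and was not tested. The other subunits that would complete a cytokine of this family were as scarce, with at most 1 count for *Il12b* (p40), 2 counts for *Il27* (p28) and 10 counts for *Il23a* (p19), and at most 4 counts for *Il6* itself. Of the subunit genes, *Ebi3* alone passed the filter on low counts in either tissue.

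**Figure D2:**
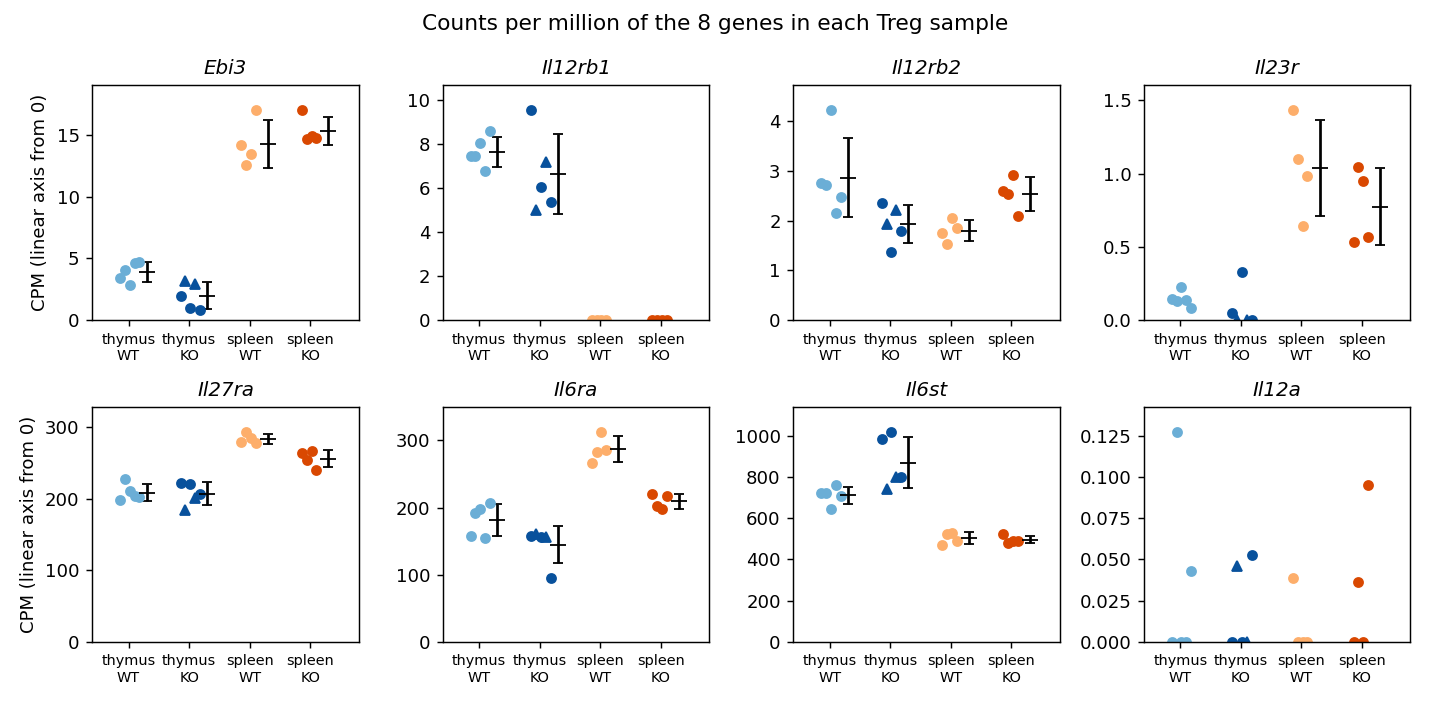
CPM on linear axes from 0 for the 8 genes, 1 point per mouse, with the mean and SD of each group at its right, except for *Il12a*, thymic *Il23r* and groups at 0. Triangles are thymic CD25 KO mice 2 and 4, and the panel of *Il6ra* shows the splenic CD25 KO mice at 197 to 220 CPM, all below the splenic WT mice at 267 to 313 CPM.

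The receptor chains for IL-12 and IL-23 were low. *Il12rb1*, the chain used by both cytokines, was at 7.46, 7.48, 8.03, 6.76 and 8.58 CPM in thymic WT mice 1 to 5 and at 9.54, 5.02, 6.04, 7.20 and 5.35 CPM in thymic CD25 KO mice 1 to 5. The groups overlapped, with CD25 KO mouse 1 above all WT mice, and the log2 fold change was -0.19 ± 0.16 (SE, edgeR adjusted p = 0.404). Without CD25 KO mice 2 and 4 it was -0.13 ± 0.18 (SE, edgeR adjusted p = 0.635). In the spleen, *Il12rb1* is listed at 0 counts in all 8 samples. This value was not read as absence of the transcript, because 52 genes with at least 20 counts in each thymic sample are listed at 0 in each splenic sample and no gene shows the opposite. They include genes that every cell uses, such as *Ppp1ca*, a protein phosphatase subunit with 1926 to 3452 counts in thymic samples, *Srsf1*, a splicing factor with 487 to 862, and *Uqcrc1*, a respiratory chain subunit with 778 to 1541.

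Some of these genes stand alone on their chromosomes, and others lie side by side, as around *Il12rb1*. Of the 7 expressed genes from *Pde4c* to *Arrdc2* there, 6 had at most 1 count in any splenic sample. Among them, *Pik3r2*, which encodes a regulatory subunit of phosphatidylinositol 3-kinase, had 95 to 225 thymic counts and 0 splenic counts, and *Mast3*, a kinase gene, had 815 to 1422 thymic and at most 1 splenic count. The exception was *Ifi30*, with 41 to 195 thymic and 28 to 67 splenic counts, and the 13 genes on either side of the run had at least 141 counts in every splenic sample. No fold of *Il12rb1* that involves the spleen is therefore given, and its splenic counts were left out of the comparisons.

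**Figure D3:**
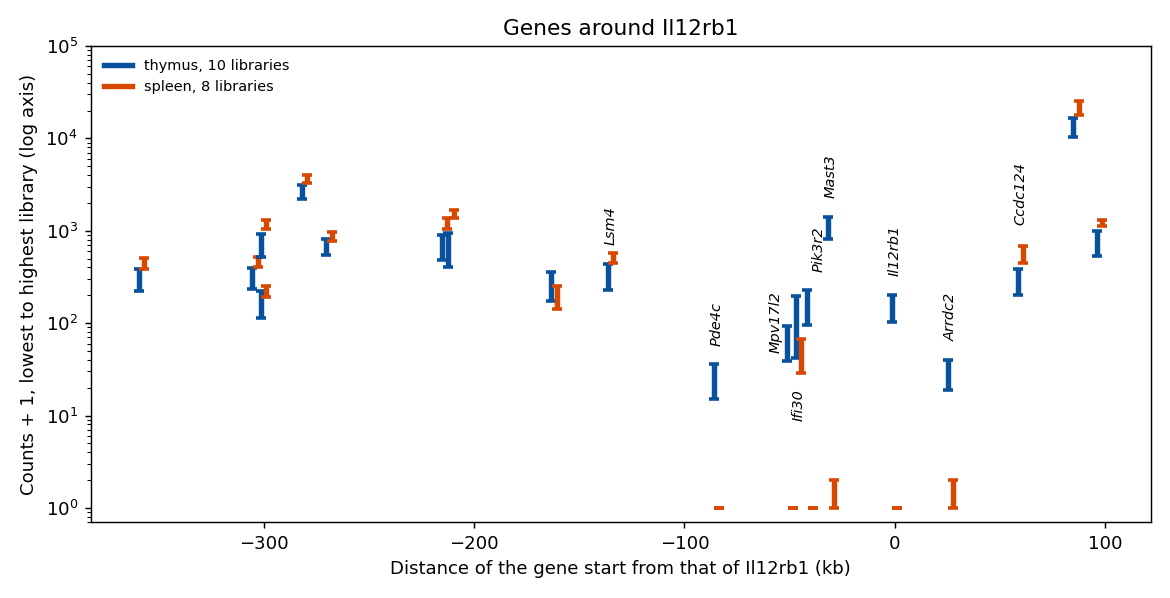
Counts plus 1 on a log axis against the distance of each gene's start from that of *Il12rb1*, in kb, for genes with a thymic median of at least 20 counts. Each bar spans the lowest to the highest of 10 thymic (blue) or 8 splenic (orange) samples, and the splenic bars drop to 0 or 1 count for 6 genes around *Il12rb1* while those of its farther neighbors do not.

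*Il12rb2*, the signaling chain of the IL-12 receptor, went in opposite directions in the 2 tissues, though neither change passed the threshold. Thymic WT mice 1 to 5 had 2.76, 2.72, 4.22, 2.15 and 2.48 CPM, and thymic CD25 KO mice 1 to 5 had 2.35, 1.93, 1.36, 2.21 and 1.78 CPM. WT mouse 3 was the highest, CD25 KO mice 1 and 4 reached into the WT range, and the log2 fold change was -0.55 ± 0.21 (SE, edgeR adjusted p = 0.0740). Without CD25 KO mice 2 and 4 it was -0.63 ± 0.26 (SE, edgeR adjusted p = 0.0994). Splenic WT mice had 1.74, 1.54, 2.06 and 1.85 CPM, and splenic CD25 KO mice had 2.59, 2.52, 2.92 and 2.09 CPM. All splenic CD25 KO values lay above all WT values, the lowest of them by little, and the log2 fold change was 0.49 ± 0.18 (SE, edgeR adjusted p = 0.0712).

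Tested directly, the effect on *Il12rb2* in the spleen exceeded that in the thymus by 1.06 ± 0.28 (SE) on the log2 scale, with an edgeR adjusted p of 0.0129. This p lay close to the threshold, and it was 0.00946 in edgeR with a correction for GC content, 0.00388 in DESeq2 and 0.00752 in edgeR without thymic WT mouse 4. With any other single mouse left out it stayed above the threshold, at up to 0.0317, and it was 0.0131 without thymic CD25 KO mice 2 and 4. These values rest on 25 to 94 counts per sample, and *Il12rb2* shares 1519 exonic bases with *Serbp1* on the opposite strand, which had 7586 to 14310 counts per sample. Whether reads of *Serbp1* were assigned to *Il12rb2* was not tested.

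*Il23r*, the specific chain of the IL-23 receptor, had 2 to 5 counts in thymic WT mice and 0 to 6 in thymic CD25 KO mice and was not tested there. In the spleen, WT mice had 37, 30, 15 and 25 counts and CD25 KO mice had 14, 29, 25 and 18 counts. The groups overlapped, and the log2 fold change of -0.44 ± 0.30 (SE, edgeR adjusted p = 0.360) had a 95% interval of -1.03 to 0.15, which includes 0.

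Among the receptor chains for IL-27 and IL-6, *Il6ra* was lower in splenic CD25 KO Tregs and was the 1 gene of the family called in either tissue. Splenic WT mice had 267, 283, 313 and 286 CPM of *Il6ra*, and splenic CD25 KO mice had 220, 203, 197 and 217 CPM. All CD25 KO values lay below all WT values, and *Il6ra* fell by 0.46 ± 0.057 (SE) on the log2 scale, 1.37-fold, with an edgeR adjusted p of 4.98e-05. The call held when each splenic mouse was left out in turn (edgeR adjusted p of 4.16e-05 to 0.000341). It was lost when the spread was estimated from all 18 samples together, where the log2 fold change was -0.46 ± 0.12 (SE, edgeR adjusted p = 0.0236).

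In the thymus, WT mice 1 to 5 had 158, 191, 198, 155 and 207 CPM of *Il6ra*, and CD25 KO mice 1 to 5 had 157, 160, 156, 156 and 95.01 CPM. CD25 KO mouse 5 stood far below the other 4, which lay at the low end of the WT range. The log2 fold change was -0.31 ± 0.13 (SE, edgeR adjusted p = 0.109), and without CD25 KO mouse 5 it was -0.19 ± 0.084 (SE, edgeR adjusted p = 0.121). The difference between the effects in the 2 tissues was -0.13 ± 0.17 (SE, edgeR adjusted p = 0.630), with a 95% interval of -0.46 to 0.20, so the data do not separate the effect on *Il6ra* in the spleen from that in the thymus. *Il6ra* shares 242 exonic bases with the antisense gene *Gm42809*, which had 24 to 175 counts, few beside the 1810 to 7735 counts of *Il6ra*.

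*Il6st*, which encodes gp130, was the most abundant of these transcripts in CPM. Thymic WT mice 1 to 5 had 723, 722, 646, 758 and 707 CPM, and thymic CD25 KO mice 1 to 5 had 983, 744, 1018, 797 and 797 CPM. CD25 KO mouse 2 alone lay within the WT range, and the log2 fold change was 0.30 ± 0.087 (SE), which did not pass the threshold in edgeR (adjusted p = 0.0278). It passed in DESeq2 (adjusted p = 0.00639), in edgeR without CD25 KO mice 2 and 4 (0.40 ± 0.083, adjusted p = 0.00576) and in edgeR with all 18 samples in 1 fit (adjusted p = 0.00841). It did not pass with any single mouse left out (edgeR adjusted p of 0.0166 to 0.0702) or with the replicate block (edgeR adjusted p = 0.0715). In the spleen, WT mice had 470, 525, 527 and 491 CPM and CD25 KO mice had 521, 479, 490 and 491 CPM of *Il6st*. The groups overlapped, and the 95% interval of the log2 fold change, -0.13 to 0.082, lies around its estimate of -0.022 (edgeR adjusted p = 0.825).

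*Il27ra*, the specific chain of the IL-27 receptor, was at 198 to 227 CPM in thymic WT and 184 to 223 CPM in thymic CD25 KO mice. The log2 fold change was 0.0049 ± 0.057 (SE, edgeR adjusted p = 0.961), with a 95% interval of -0.11 to 0.12. In the spleen, WT mice had 279, 294, 285 and 277 CPM and CD25 KO mice had 264, 255, 266 and 240 CPM. The groups did not overlap, but the log2 fold change of -0.15 ± 0.049 (SE) was small and was not called (edgeR adjusted p = 0.0515).

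Counted over the family, 0 of the 6 genes tested in the thymus were called, where 6.16% of 16986 genes tested were called. At an unadjusted edgeR p below 0.05, 4 of the 6 passed (*Ebi3*, *Il12rb2*, *Il6ra* and *Il6st*), as did 37.9% of all genes, and DESeq2 called 1, *Il6st*. In the spleen, 1 of the 6 tested genes was called, beside 9.45% of 17463 genes. The 2 genotypes had no CPM values in common for 3 of these 6 genes in the spleen (*Il12rb2*, *Il27ra* and *Il6ra*) and for 20.4% of all genes tested there, and for 0 of the 6 in the thymus, where the figure was 16.4%. Over the genes tested, the median log2 fold change was -0.25 in thymic and -0.084 in splenic Tregs, against -0.0022 and -0.0065 over all genes. None of the 6 genes in the test of the difference between tissues was called by edgeR, beside 6.98% of 18686 genes, whereas DESeq2 called 1, *Il12rb2*. *Il23r* is 1 of these 6 only because its splenic samples passed the filter on low counts, and its difference was 0.55 ± 0.85. In that test, 3 of the 6 genes had an unadjusted edgeR p below 0.05, beside 32.8% of all genes, namely *Il12rb2* (adjusted p = 0.0129), *Ebi3* (difference 1.07 ± 0.35, adjusted p = 0.0388) and *Il6st* (-0.31 ± 0.11, adjusted p = 0.0660). Without thymic CD25 KO mice 2 and 4, the differences of *Ebi3* (1.75 ± 0.29, edgeR adjusted p = 0.000200) and *Il6st* (-0.41 ± 0.10, edgeR adjusted p = 0.00561) were called.

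**Figure D4:**
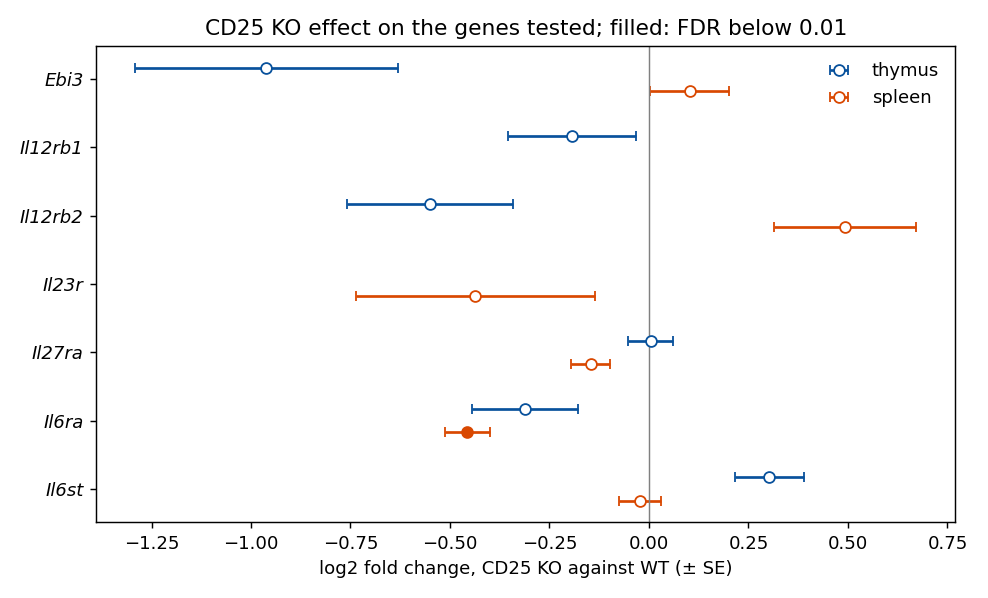
log2 fold changes of CD25 KO against WT with their standard errors for the 7 genes tested in at least 1 tissue, in the thymus (blue, 5 against 5 mice) and the spleen (orange, 4 against 4 mice). The filled symbol marks the 1 call, *Il6ra* in the spleen, and *Ebi3* and *Il12rb2* lie on opposite sides of 0 in the 2 tissues.

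Between WT Tregs of the 2 tissues, all 6 genes in the fit were called. *Il23r* is among them only because its splenic samples passed the filter on low counts. *Ebi3* was 3.65-fold higher in the spleen, with 12.6 to 17.1 CPM against 2.83 to 4.74 CPM (log2 difference 1.87 ± 0.24, edgeR adjusted p = 1.41e-06). *Il23r* was at 0.0854 to 0.224 CPM in the thymus, where 4 of 5 mice were at or below 3 counts, and at 0.642 to 1.43 CPM in the spleen. Its log2 difference was 2.82 ± 0.50 (edgeR adjusted p = 8.85e-05). Since the filter admitted *Il23r* through the spleen alone, this call is not independent of its higher splenic level. *Il6ra* (0.66 ± 0.12) and *Il27ra* (0.44 ± 0.057) were higher in the spleen, with edgeR adjusted p of 9.09e-05 and 1.76e-06. *Il6st* was lower in the spleen (-0.50 ± 0.081, edgeR adjusted p = 3.37e-05), and so was *Il12rb2* (-0.67 ± 0.20, edgeR adjusted p = 0.00670). The call of *Il12rb2* was lost when any 1 of thymic WT mice 1 or 3 or splenic WT mice 1, 2 or 4 was left out (edgeR adjusted p of 0.0106 to 0.0270). Beside these 6 of 6, with *Il23r* counted under that limit, 40.4% of all 18686 genes tested were called. The thymic and splenic samples also differ in age, reporter alleles, tamoxifen and the date given with the sample name, which cannot be told apart from the tissue.

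Of 51 other genes of these pathways (further ligands, receptor chains, kinases, STAT factors, inhibitors, shedding enzymes and known targets), 39 were tested in the thymus and 40 in the spleen. Thymic CD25 KO Tregs had 6 of them lower and 3 higher than WT, and splenic ones had 2 lower and 15 higher, beside the 6.16% and 9.45% of all genes. Those tested had a median log2 fold change of -0.062 in thymic and 0.17 in splenic Tregs, against -0.0022 and -0.0065 over all genes. The thymic count fell to 5 with WT mouse 2 or CD25 KO mouse 3 left out and to 4 without CD25 KO mouse 1. It was 11 without CD25 KO mice 2 and 4.

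Among kinases and STAT factors, *Jak2*, which serves the IL-12, IL-23 and IL-6 receptors, rose in the spleen (0.48 ± 0.054, edgeR adjusted p = 2.15e-05), and *Stat4*, the main transducer of IL-12, rose there by less (0.24 ± 0.056, edgeR adjusted p = 0.00611). *Jak1* and *Tyk2* were within 0.062 of 0 on the log2 scale in both tissues, and neither was called. Of the inhibitors, *Socs1* fell in both tissues (-0.92 ± 0.067 in the thymus, -0.45 ± 0.065 in the spleen), and *Socs3*, which binds gp130 and blocks IL-6 signals, fell in the thymus (-0.80 ± 0.093, edgeR adjusted p = 0.000461).

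Known targets of these cytokines made up most of the listed genes tested in the spleen and also most of the splenic calls. Over all genes tested, 5.90% were called higher in the spleen, and in the thymus 2.99% were called lower and 3.17% higher. The lists were chosen with earlier results of these data known, so the counts by group are descriptions and not tests. Of 6 genes linked to IL-12 and STAT4, 3 rose in the spleen, namely *Tbx21*, the Th1 master factor (1.00 ± 0.077), *Ifng* (1.25 ± 0.16) and *Il18rap*, a chain of the IL-18 receptor (0.48 ± 0.10). In the thymus, *Il18r1* (-0.73 ± 0.11) and *Furin* (-0.62 ± 0.12) of this group fell. Of 9 tested genes linked to IL-6, IL-23 and STAT3, 5 rose in the spleen, namely *Rora* (0.45 ± 0.089), *Batf* (0.78 ± 0.060), *Maf* (0.78 ± 0.083), *Bcl6* (0.83 ± 0.063) and the cytokine gene *Il21* (1.53 ± 0.19). None of the 9 was called in the thymus, where 4 had an unadjusted edgeR p below 0.05, beside 37.9% of all genes. All of these genes also respond to other signals in T cells.

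Of the 7 genes linked to IL-27, 5 rose in the spleen, beside 5.90% of all genes. They were *Il10* (2.02 ± 0.21), *Prdm1*, which encodes the factor Blimp-1 (1.00 ± 0.077), and *Ly6a* (0.93 ± 0.066). The others were the chemokine receptor gene *Cxcr3* (0.83 ± 0.056) and *Cd274*, which encodes PD-L1 (0.31 ± 0.049). In the thymus, *Prdm1* (-1.05 ± 0.18) and *Ly6a* (-1.02 ± 0.11) fell, whereas *Irf1* (0.34 ± 0.071) and *Cd274* (0.32 ± 0.057) rose. The opposite effects on *Prdm1* and *Ly6a* differed between the tissues by 2.06 ± 0.19 and 1.96 ± 0.13 on the log2 scale (edgeR adjusted p of 9.31e-07 and 1.82e-08). The remaining splenic call was *Osm*, a ligand that signals through gp130, which fell by 0.39 ± 0.066 (edgeR adjusted p = 0.000718). Of the other ligand genes, *Clcf1* is listed at 0 in all splenic samples, as *Il12rb1* is.

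**Figure D5:**
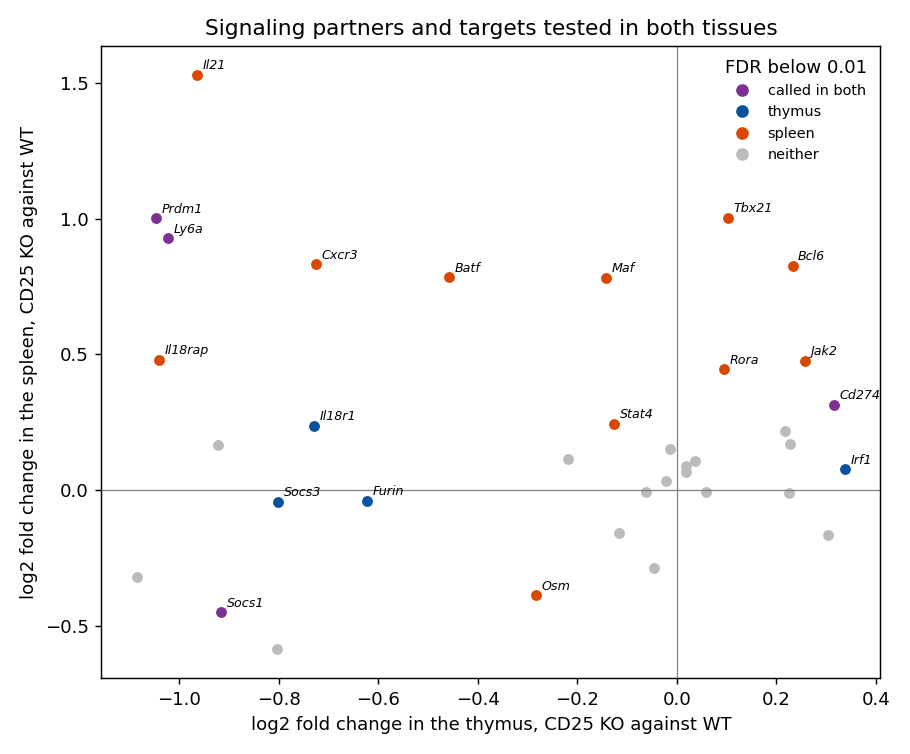
log2 fold changes of CD25 KO against WT in the thymus (horizontal) and the spleen (vertical) for 36 other pathway genes tested in both tissues, colored by the tissue in which they were called and named where called. *Prdm1* and *Ly6a* lie at the upper left, lower in the thymus and higher in the spleen, and *Socs1* lies at the lower left, lower in both.

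Markers of Treg subsets and of other cells moved with genotype. Of 10 effector Treg markers, 9 rose in the spleen, beside 5.90% of all genes, and 5 fell in the thymus, beside 2.99%. *Prdm1*, *Maf* and *Cxcr3* are in both this list and the one above. Of 10 central Treg markers, 4 fell and 1 rose in the spleen, where 3.55% of all genes fell, and 1 fell in the thymus. Summed B cell markers went from 445 to 554 CPM in splenic WT to 606 to 734 CPM in splenic CD25 KO mice, and from 107 to 135 CPM to 59.3 to 77.0 CPM in the thymus, with 3 of 5 and 1 of 3 tested markers called. Summed NK cell markers went from 6.85 to 7.94 CPM to 10.5 to 14.1 CPM in the spleen, where *Ncr1* and *Klra8* were at 0 in all samples. Most of this sum was *Prf1*, at means of 6.23 CPM (WT) and 7.87 CPM (CD25 KO), which was not called. Of the 2 tested NK cell markers, *Klrb1c* alone was called (1.90 ± 0.39), at means of 1.14 and 4.26 CPM. Summed myeloid cell markers went from 11.6 to 18.6 CPM to 16.5 to 23.0 CPM in the spleen. Of the 4 myeloid markers tested, *Lyz2* rose in the spleen (1.03 ± 0.19), whereas *Csf1r* (-0.24), *Fcgr3* (-0.21) and *Adgre1* (-0.82) had negative log2 fold changes and were not called. Dendritic cell markers summed to 27.9 to 29.7 CPM in splenic WT and 29.8 to 35.9 CPM in splenic CD25 KO mice. Most of this was *Zbtb46*, at means of 24.6 CPM (WT) and 27.2 CPM (CD25 KO), and 0 of the 3 tested dendritic cell markers were called. The *Cd8a* and *Cd8b1* pair summed to 7.80 to 9.45 CPM in splenic WT and 8.33 to 10.8 CPM in splenic CD25 KO mice. Immature thymocyte markers summed to 186 to 318 CPM in thymic WT and 241 to 382 CPM in thymic CD25 KO mice, and to 115 to 121 CPM in splenic WT and 137 to 164 CPM in splenic CD25 KO mice. In the thymus, log2 fold changes were positive for *Themis* (0.48 ± 0.13), *Cd1d1* (0.27 ± 0.067) and *Arpp21* (0.21 ± 0.38). They were negative for *Rag1* (-0.38 ± 0.46), *Rag2* (-0.27 ± 0.54) and *Dntt* (-0.31 ± 0.34), and 0 of these 6 tested markers were called. The splenic sums were mostly *Themis*, at means of 89.2 CPM (WT) and 113 CPM (CD25 KO), and *Cd1d1*, at 29.3 and 34.7 CPM. *Rag2* and *Ptcra* had 0 to 2 counts in every splenic sample, *Rag1* is among the genes listed at 0 there and *Dntt* was not called (-0.73 ± 0.32). The part of these cells or subsets in the values of *Il6ra*, *Ebi3* or *Il12rb2* was not tested.

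For the 5 family members that passed the filter in both tissues, the genes most like them were sought by Pearson's r of log2 CPM, centered within each tissue, over the 18 samples and 8783 genes. For *Ebi3* they were *Larp1b* (r = 0.95), *Map6* (0.94) and *Furin* (0.93), and for *Il6ra* they were *Cep164* (0.96), *Cdc37* (0.95) and *Eef2* (0.94). *Il6st* was followed most closely by *Sntb1* (0.92), *Zfp846* (0.91) and *Smim14* (0.90), and *Il27ra* by *Eps15l1* (0.89), *Tecpr1* (0.87) and *Gga3* (0.87). For *Il12rb2*, with the fewest counts, they were *Txndc11* (0.87), *Cdc34* (0.86) and *Pfdn1* (0.86). The samples share the genotype contrast and library properties, so these values describe likeness in these samples and carry no test.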

How the data were processed

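RNA was counted per gene in 18 samples of sorted Tregs. Per the labels and the study's methods, the authors mapped the read pairs with STAR 2.5.0b (GRCm38), counted reads per GENCODE M13 gene with featureCounts 1.5.0, and deposited raw counts, which were used without change. The strand setting is not given in the sources used here. Symbols, exon lengths and GC content were taken from GENCODE M21, which holds 50376 of the 50600 identifiers. Groups came from the sample labels. Genes were kept by filterByExpr, scaled by TMM and tested by edgeR 4.0.16 in R 4.3.3 (quasi-likelihood, Benjamini-Hochberg over all genes tested), within each tissue, and in 1 fit of all samples for differences between tissues. DESeq2 1.42.0, which the study used, was an alternative. Standard errors follow from the fold change and the F statistic. CPM and RPKM were computed here. All 8 genes were reported, with every other pathway gene called in either tissue, except 1 that is counted but not reported here, and the 3 genes most like each of those tested in both tissues (mean log2 CPM of at least 3, predicted genes left out). The genes and lists were chosen with earlier results of these data known. Code was tested on simulated data. No pair of replicates agreed within sampling noise (mean chi-square per gene of at least 3.79). Reads carry no molecular identifiers, so floors cover counting error only. Protein sequences were not used here.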

Additional observations from a re-analysis of the deposited data

Results flagged for a closer look

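2 values of these genes lay far from the rest of their group, by the gap to the nearest other sample relative to the range of the group. *Il6ra* in thymic CD25 KO mouse 5 was at 95.01 CPM, below the 156 to 160 CPM of the other 4 mice. *Ebi3* in splenic CD25 KO mouse 1 was at 17.03 CPM, above the 14.7 to 14.9 CPM of the other 3 mice. Among the 24 groups of values examined in this way, chance alone flags about 1 in 20.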

How the results depend on the processing

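Of the counts of called genes recomputed under alternatives, 109 stayed within 1.5 times the value reported and 17 did not. Among these 8 genes, the thymic count of 0 became 1 with DESeq2 or at FDR < 0.05, and 2 with all 18 samples in 1 fit or without thymic CD25 KO mice 2 and 4. The splenic count of 1 became 0 with all 18 samples in 1 fit. The count for the difference between tissues, 0, became 1 with DESeq2 or GC offsets and 2 at FDR < 0.05 or without thymic CD25 KO mice 2 and 4, and it ranged from 0 to 1 when single mice were left out. Leaving out single mice gave 0 calls in the thymus, 1 in the spleen and 5 to 6 for WT spleen against thymus. The pathway list's thymic count of 9 became 15 with DESeq2, 17 at FDR < 0.05 and 16 with all 18 samples in 1 fit, and ranged from 4 to 10 when single mice were left out, against 15 to 17 for its splenic count of 17.

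With mouse number as a replicate block in the thymic fit, the pathway count was 5 and that of the 8 genes 0, and with GC offsets in addition they were 6 and 0. Same-numbered mice did not deviate together (r from -0.24 to 0.14, and 1 of 5 WT mice correlated best with its own number), so they share only a number. Of 532 fold changes of single genes, 7 changed sign. *Il27ra* in the thymus was -0.011 with all samples in 1 fit and between -0.018 and 0.041 when single mice were left out, and *Il23r* in the difference between tissues was -0.21 ± 0.88 without thymic CD25 KO mice 2 and 4. The causes were not tested. *Il12rb2* was measured with 25 to 94 counts per sample and *Ebi3* with 15 to 111 in the thymus.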
